A study of Mus musculus with 96 samples.

Results

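Glycerol kinase (Gk) and 4 other genes of hepatic glycerol handling (Aqp9, Gpd1, Gpd2 and Gpd1l) were followed through the livers of reciprocal F1 mice. The 5 genes were taken by symbol from the 38924 genes of the deposited tables, and all 5 passed the filter on low counts that left 11979 genes for testing. They were chosen by the measured difference of Gk between the crosses and their place in glycerol metabolism, with results of these data known. Levels and allele shares by cross are therefore given as a description, without a test, while age, diet, their interactions and the difference between the alleles were tested.

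RNA was measured in the liver of 48 male F1 hybrids of the inbred strains NOD/ShiLtJ, in which autoimmune diabetes develops, and PWK/PhJ, which derives from wild mice. In a cross name the leading strain was read as the mother, so NODxPWK males have a NOD mother and PWKxNOD males a PWK mother. Within each cross, mice ate a normal diet with 0.009 g/kg or a high diet with 0.050 g/kg of cholecalciferol (vitamin D3) and were killed younger or older, which gives 8 groups of 6 mice. Every mouse carries 1 NOD and 1 PWK copy of each autosome and a single X chromosome from its mother. The age labels are 8 for younger and 24 or 25 for older mice without a unit and do not match the protocol, so ages are given as younger and older only. Label 25 was carried by 7 mice, all older and on the normal diet, of which 5 were NODxPWK and 2 were PWKxNOD. Where these 7 are left out, older NODxPWK mice on the normal diet are 1 mouse, whose value then stands for its group. Strain of the X chromosome, of the Y chromosome, of the mitochondria and of the mother change together between the crosses and cannot be told apart.

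Summed counts ranged from 2.03 M to 7.48 M per mouse with a median of 5.27 M, and the 6 mice of 1 barcode were the shallowest at 2.03 M to 3.09 M. All 8 hepatocyte markers were detected, with a summed level of 63300 to 126000 counts-per-million (CPM, on libraries scaled by TMM). The summed level of the 9 exocrine pancreas markers other than Cela1 reached 10 CPM or more in 10 mice. Over all mice that sum had a median of 0.622 CPM and a highest value of 1260 CPM. A clock score, the mean log2 level of clock genes such as Dbp and Per2 minus that of genes such as Arntl and Npas2, had group means from -1.45 to 3.36.

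Glycerol is set free when triglyceride is broken down, and the liver is the main organ that takes it up. It enters hepatocytes through the aquaglyceroporin encoded by Aqp9 and is phosphorylated by glycerol kinase, encoded by the X-linked gene Gk, to glycerol 3-phosphate. This intermediate either becomes the backbone of new glycerolipids or is oxidised to dihydroxyacetone phosphate, which feeds gluconeogenesis and glycolysis. The cytosolic NAD-linked enzyme of Gpd1 and the mitochondrial FAD-linked enzyme of Gpd2 catalyse that step and together form the glycerol phosphate shuttle, while Gpd1l encodes a relative of the Gpd1 enzyme.

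Coordinates below are those of GRCm38. Aqp9 (ENSMUSG00000032204) lies on the minus strand of chromosome 9 from 71110659 to 71168682, and Gk (ENSMUSG00000025059) on the minus strand of chromosome X from 85701937 to 85776819. Gpd1 (ENSMUSG00000023019) lies on the plus strand of chromosome 15 from 99717515 to 99725005. Gpd2 (ENSMUSG00000026827) occupies 57237635 to 57370719 on the plus strand of chromosome 2, and Gpd1l (ENSMUSG00000050627) occupies 114899341 to 114933987 on the minus strand of chromosome 9. All are protein-coding, and mean counts per mouse were 1496.9 for Aqp9, 939.3 for Gk, 1382.8 for Gpd1, 473.2 for Gpd2 and 187.7 for Gpd1l. Windows of 68 bases, the read length, that recur in other annotated transcripts made up 8.4% for Gpd1 and 5.36% for Gpd2, in each case with an antisense or overlapping transcript, and at most 0.34% for the other genes. The library type does not keep strand, so reads of Gpd1 and of its antisense partner Gm16537 cannot be told apart, nor those of Gpd2 and A930012O16Rik. The deposited mean counts of these partners were 0.0833 and 3.06 per mouse.

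Promoter windows of RefSeq on GRCm38.p6 were available for 4 of the 5 genes, and those of Gk and Gpd1l are shown because these genes held the largest difference between the crosses and between the alleles. Each run gives the 250 bases before the annotated start, 5′ to 3′ on the gene's strand, in the C57BL/6J reference and not in NOD or PWK. Capitals mark matches to a GC box (GGGCGG, here on the opposite strand as CCGCCC) or an E-box (CACGTG), both strands searched.
Gk, chrX:85776820-85777069, minus strand: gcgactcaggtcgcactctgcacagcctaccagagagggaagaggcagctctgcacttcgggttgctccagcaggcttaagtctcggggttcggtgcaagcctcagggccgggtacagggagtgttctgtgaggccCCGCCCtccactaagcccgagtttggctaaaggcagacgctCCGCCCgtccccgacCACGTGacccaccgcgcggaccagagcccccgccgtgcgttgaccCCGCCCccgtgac
Gpd1l, chr9:114933988-114934237, minus strand: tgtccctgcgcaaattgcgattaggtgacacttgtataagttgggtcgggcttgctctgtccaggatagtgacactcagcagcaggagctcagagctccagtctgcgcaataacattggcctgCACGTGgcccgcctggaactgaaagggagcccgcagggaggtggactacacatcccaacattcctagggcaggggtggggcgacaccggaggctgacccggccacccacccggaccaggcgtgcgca
The Gk window was 67.2% G and C against a median of 52.4% over 32851 mouse windows, and it held 3 GC boxes and 1 E-box, the latter 58 to 53 bases before the start. The Gpd1l window held 1 E-box at 127 to 122 bases before the start. Over all windows 6.02% held an E-box and 32.7% a GC box. Neither window matched a nuclear receptor motif (AGGTCA, in 14% of all windows), a direct repeat of it with 1 base between (0.0335%), a cAMP response motif (TGACGT, 6.47%), a forkhead site (TGTTTAC, 3.17%), an AP-1 site (TGANTCA, 6.75%) or a TATA box (TATAAA, 12.4%). A match describes letters of the reference only.

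Per length of annotated exons, Gpd1 and Aqp9 were the most abundant of the 5 transcripts. Gpd1 averaged 88.8 ± 16.5 CPM per kb (SD, n = 48) and Aqp9 69.8 ± 11.5, and Gpd1 exceeded Aqp9 in 38 of 48 mice, so these neighbours were not fully separated. Gpd2 averaged 13.9 ± 2.05 CPM per kb and Gpd1l 7.19 ± 1.00, and Gpd2 was above Gpd1l in all 48 mice. Gk changed its place in this order with the cross. It averaged 9.43 ± 1.64 CPM per kb in NODxPWK mice, below Gpd2 in 24 of 24, and 39.9 ± 8.21 in PWKxNOD mice, above Gpd2 in 24 of 24. In both crosses Gk stayed below Aqp9 and above Gpd1l in every mouse.

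Gk, which encodes the enzyme that traps glycerol in the cell, was several-fold more abundant in mice with a PWK mother. Among younger mice on the normal diet, the lowest, median and highest Gk levels were 69.6, 75.8 and 97.9 CPM in NODxPWK and 266, 281 and 314 CPM in PWKxNOD mice. On the high diet the younger NODxPWK mice had 55.5, 66.1 and 80.3 CPM and the younger PWKxNOD mice 247, 318 and 373 CPM. The 2 crosses did not meet at either diet. Of all genes tested, 1.07% did not overlap between the 6 mice of each cross on the normal and 1.52% on the high diet, from which nothing is read since the choice of Gk used this contrast. Among older mice on the normal diet the values were 77.1, 83.6 and 96.4 CPM in NODxPWK and 194, 262 and 429 CPM in PWKxNOD mice. Older mice on the high diet had 50.9, 60.2 and 70.9 CPM in NODxPWK, the lowest group, and 268, 346 and 431 CPM in PWKxNOD, the highest group. The crosses were again apart, as were 1.29% of all genes in older mice on the normal and 3.99% on the high diet. Over all mice the lowest PWKxNOD value, 194 CPM, lay above the highest NODxPWK value, 97.9 CPM. The mean was 309 ± 63.6 CPM (SD, n = 24) in PWKxNOD and 73.0 ± 12.7 CPM in NODxPWK mice, a ratio of 4.23. By group that ratio was 3.44 in older and 3.61 in younger mice on the normal diet, and 5.79 in older and 4.57 in younger mice on the high diet. The fitted difference was 2.09 ± 0.07 (log2, SE). In bulk liver, more cells that express a gene and more RNA per cell cannot be told apart.

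**Figure D1:**
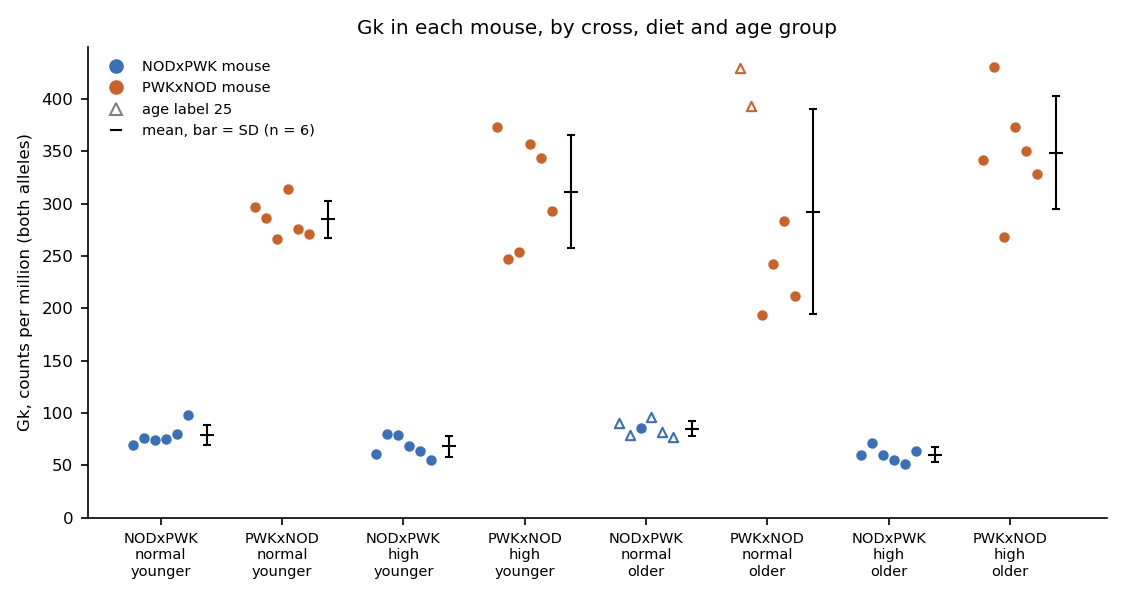
Gk in counts-per-million (vertical axis, both allele tables summed) for every mouse, by cross, diet and age group (horizontal axis); each point is 1 mouse, open triangles carry age label 25, and the bar beside each group is mean ± SD (n = 6). All 24 PWKxNOD mice sit at 194 CPM or above and all 24 NODxPWK mice at 97.9 CPM or below.

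Among genes of the X chromosome, Gk lay in the upper tail of the differences between the crosses, though not at its end. Of 11979 genes tested, 0.150% did not overlap between the 24 mice of each cross, and of the 348 X-linked genes 3.16% did not, Gk among them. The choice of Gk used this contrast, so nothing is read from these shares. By size of the fitted difference Gk stood at place 9 of the 348 X-linked genes and at place 38 of 11029 genes with a mean of at least 2 CPM. The X-linked differences had a median of -0.03 and ran from -4.03 to 4.65 (log2), with 24 above 1 in size and 148 of 348 higher in PWKxNOD mice. The 3 tested genes within 5 Mb of Gk lay between -0.30 and -0.03, unlike Gk itself.

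**Figure D2:**
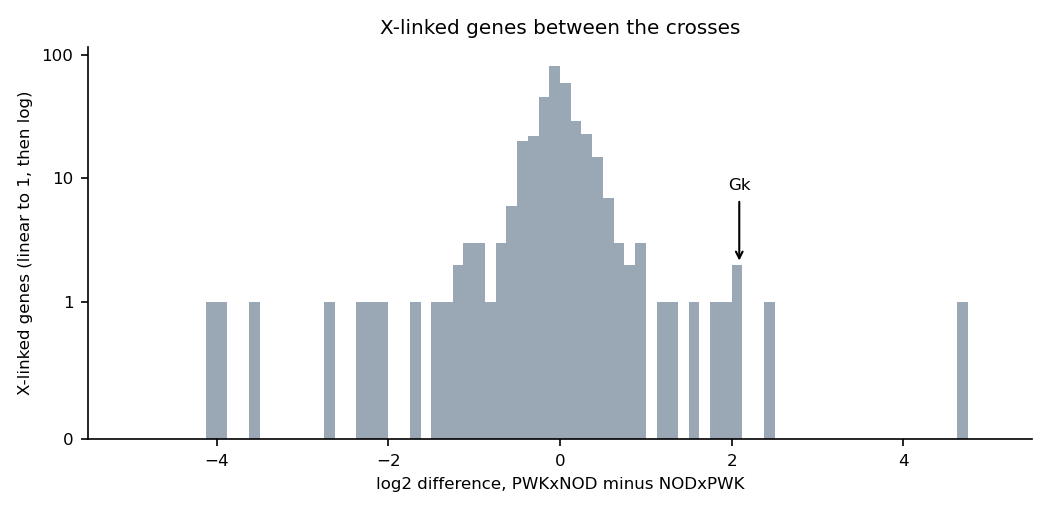
Number of X-linked genes (vertical axis, linear to 1 and then logarithmic) by log2 difference of PWKxNOD minus NODxPWK (horizontal axis) for the 348 X-linked genes tested, with the place of Gk marked by an arrow. Most genes sit close to the median of -0.03, and Gk lies at 2.09 in the right tail.

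A male has only the maternal X chromosome, so counts of Gk given to the other strain measure wrong assignment of alleles. Pooled over mice they were 0.634% of Gk counts, 0.694% in NODxPWK and 0.618% in PWKxNOD. The highest value of a single mouse was 4.00% in NODxPWK, where fewer Gk counts were present, and 1.27% in PWKxNOD. The median over 266 X-linked genes with a mean of at least 20 counts was 1.32%, and Gk had place 92 from the lowest. Nearly all Gk counts were thus assigned to the mother's strain in both crosses.

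The 4 autosomal genes overlapped between the crosses over all mice. Aqp9 averaged 304 ± 49.6 CPM in PWKxNOD and 275 ± 41.5 CPM in NODxPWK mice (SD, n = 24), a ratio of 1.1 and a fitted difference of 0.14 (log2). With the clock score in the model that difference was -0.05, and in each diet and age group the mean clock score was higher in PWKxNOD mice, for example 3.31 against -0.32 in older mice on the high diet. Aqp9 was apart in 1 of 4 diet and age groups, younger mice on the high diet, with 254 CPM as the lowest PWKxNOD and 248 CPM as the highest NODxPWK value, where 1.52% of all genes did not overlap. Gpd1 had a ratio of 1.04 (268 ± 46.4 against 257 ± 51.5 CPM), and its fitted difference of 0.05 was 0.28 without the 7 mice labelled 25 and 0.17 without the 10 with pancreas markers. Without those labelled 25, older NODxPWK mice on the normal diet were 1 mouse at 150 CPM, the lowest Gpd1 level of all 48. Gpd2 had a ratio of 1.00 (91.5 ± 16.4 against 91.1 ± 10 CPM). Gpd1l, the least abundant of the 5 genes, had a ratio of 1.14 (38.9 ± 5.28 against 34.1 ± 3.64 CPM). The shift in Gk was thus not shared in size by the channel before it or the dehydrogenases after it.

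**Figure D3:**
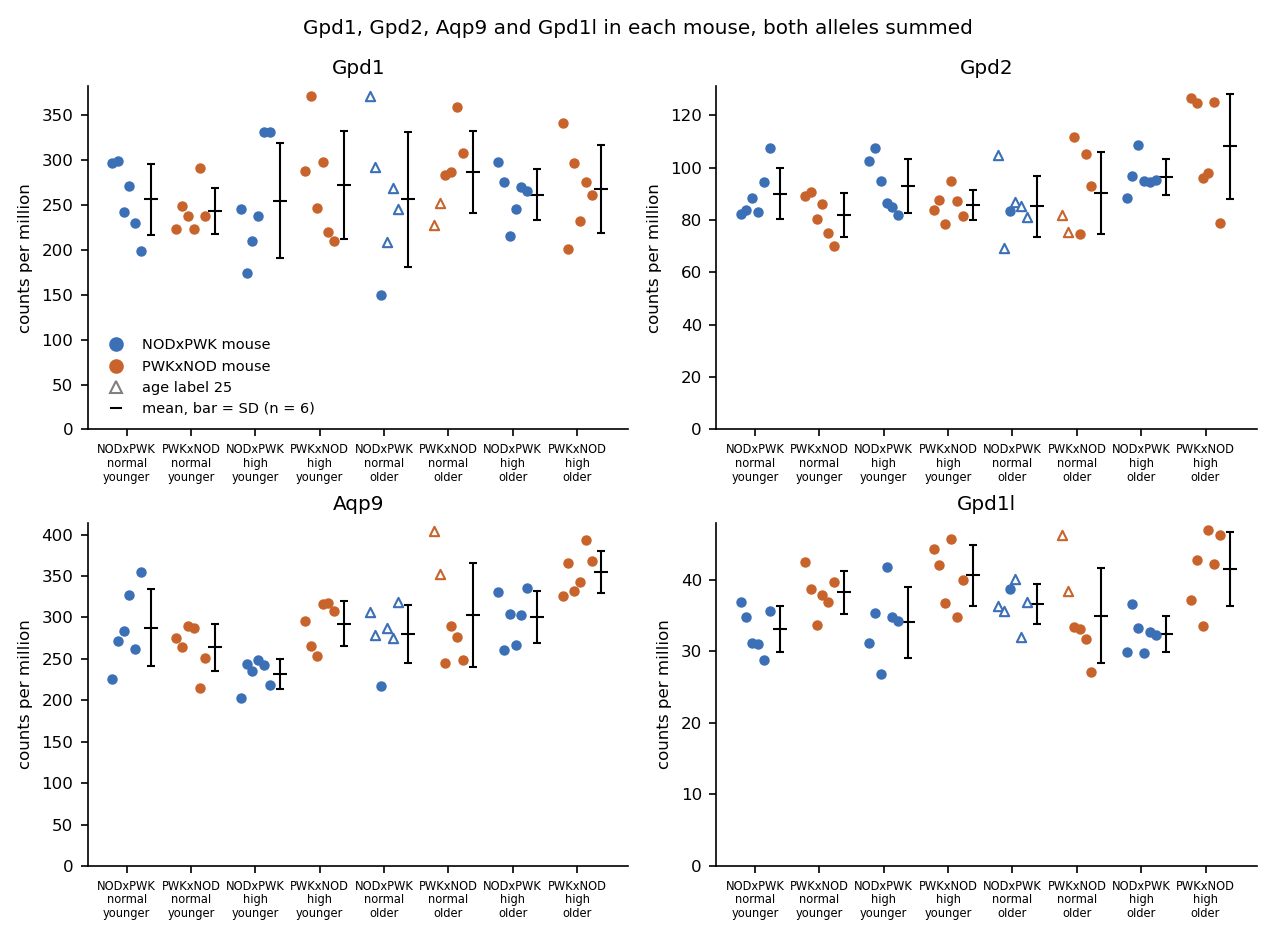
Level in counts-per-million (vertical axes, from 0) of Gpd1, Gpd2, Aqp9 and Gpd1l in every mouse by group (horizontal axes); points are mice, open triangles carry age label 25, and bars are mean ± SD (n = 6). The 2 crosses overlap for each gene over all mice, and the highest group mean of Aqp9, 355 CPM, is that of older PWKxNOD mice on the high diet.

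Of the 5 genes only Aqp9, the glycerol channel, passed the test for age. In NODxPWK mice on the normal diet Aqp9 had a lowest, median and highest value of 226, 278 and 355 CPM at the younger and 218, 283 and 318 CPM at the older age. On the high diet NODxPWK mice had 203, 239 and 248 CPM when younger and 261, 304 and 336 CPM when older. The ages overlapped on the normal diet and were apart on the high diet, as were those of 1.57% of all genes tested in these 12 mice. PWKxNOD mice on the normal diet had 215, 270 and 290 CPM when younger and 246, 283 and 405 CPM when older. On the high diet they had 254, 301 and 317 CPM when younger and 326, 354 and 393 CPM when older, without overlap, which held for 2.47% of all genes. The difference of the age effect between the diets did not pass for Aqp9 (adjusted p = 0.319, edgeR). Over all mice the older averaged 310 ± 47.7 CPM and the younger 269 ± 38.4 CPM (SD, n = 24), with overlap. Aqp9 rose by 0.20 ± 0.05 (log2, SE; adjusted p = 0.00525, edgeR's quasi-likelihood test) and was higher at the older age in 6 of 6 lane sets, each a set of 8 mice with 1 of every group on shared sequencing lanes. That is 1 of the 5 genes called, where 12% of all genes tested were called for age.

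Without the 7 mice labelled 25 the Aqp9 age difference was 0.06. That left 1 older NODxPWK mouse on the normal diet, of the shallowest barcode and at 218 CPM, where the 5 labelled 25 had 275 to 318 CPM. In NODxPWK mice the label and this single mouse cannot be told apart in that value. Leaving out replicate 1 of every group gave 0.15 (adjusted p = 0.0642, edgeR). Younger PWKxNOD mice on the normal diet had 215 to 290 CPM of Aqp9. In older PWKxNOD mice on that diet, the 2 mice labelled 25 had 353 and 405 CPM and the 4 labelled 24 had 246 to 290 CPM. The same 2 mice were also higher in Gk (393 and 429 against 194 to 283 CPM) and in Gpd1l (38.5 and 46.3 against 27.1 to 33.4 CPM), and lower in Gpd1 (227 and 253 against 284 to 359 CPM). The summed level of the 5 bile duct markers, of which 2 reached a mean of 2 CPM and none was at 0 throughout, was 28.2 to 122 CPM at the older and 23.4 to 40 CPM at the younger age. Most of that sum was Spp1, with a mean of 47.2 CPM at the older and 27.2 CPM at the younger age, and Sox9 had 5.03 and 2.75 CPM. The other 3 had the opposite order at low levels, with 0.715 and 0.86 CPM for Krt19, 0.459 and 0.522 CPM for Krt7, and 0.588 and 0.701 CPM for Epcam. The part of these markers in the Aqp9 result was not tested. With the clock score in the model the Aqp9 difference was 0.30 (adjusted p = 0.000933), and without the 10 mice with pancreas markers it was 0.19 (adjusted p = 0.0454).

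Of the other genes, Gpd2, the mitochondrial arm of the shuttle, had the next highest age difference at 0.11 ± 0.05 (adjusted p = 0.163, edgeR), with group medians from 83.1 CPM in younger PWKxNOD mice on the normal diet to 111 CPM in older PWKxNOD mice on the high diet. Gpd1, the cytosolic arm, stood at 0.06 ± 0.08 (adjusted p = 0.708), and single mice ranged from 150 to 372 CPM. Gk stood at 0.03 ± 0.07 (adjusted p = 0.83) and Gpd1l at -0.01 ± 0.05 (adjusted p = 0.942). The age difference of none of the 5 genes was shown to depend on the cross: 0 of 5 passed by edgeR, 1 (Gpd2, 0.25 ± 0.10, adjusted p = 0.418) had an unadjusted p under 0.05, and DESeq2 called 0. The share called over all genes was 0.0501%.

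**Figure D4:**
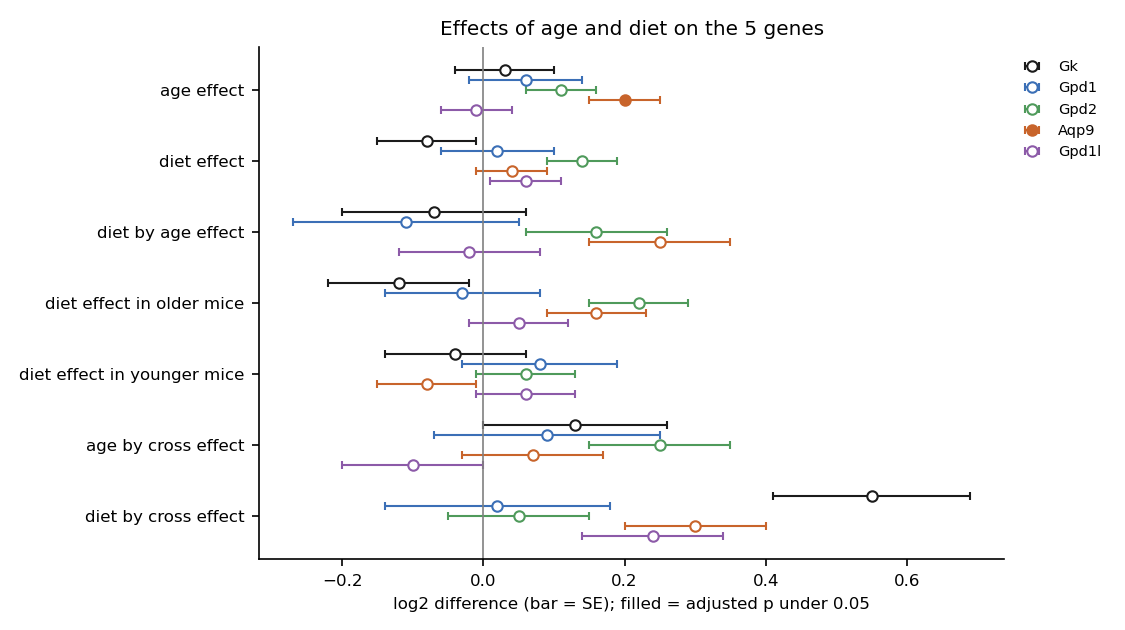
Log2 difference with its standard error (horizontal axis) for the 5 genes in each tested comparison of age, diet and their interactions (vertical axis); age is older minus younger, diet is high minus normal, and interactions with cross are PWKxNOD minus NODxPWK. Aqp9 for age, at 0.20, is the only filled point (adjusted p under 0.05), and the point farthest from 0 is Gk for diet by cross, at 0.55.

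None of the 5 genes passed the test for the high diet. Over both ages edgeR called 0 of 5, 1 (Gpd2) had an unadjusted p under 0.05 and DESeq2 called 0, where 0.342% of all genes were called. Gpd2 averaged 95.8 ± 14 CPM on the high and 86.8 ± 11.4 CPM on the normal diet (SD, n = 24), a difference of 0.14 ± 0.05 (adjusted p = 0.257, edgeR) with the same sign in 5 of 6 lane sets. Gk stood at -0.08 ± 0.07 (adjusted p = 0.749) with a negative sign in 6 of 6 lane sets, Gpd1 at 0.02, Aqp9 at 0.04 and Gpd1l at 0.06. In older mice alone Gpd2 differed by 0.22 ± 0.07 (adjusted p = 0.0898) and Aqp9 by 0.16 ± 0.07 (adjusted p = 0.237). Both had an unadjusted p under 0.05, none of the 5 was called by edgeR or DESeq2, and 3.71% of all genes were called. In younger mice 0 of 5 were called or had an unadjusted p under 0.05, and DESeq2 called 0 of them. Over all genes edgeR called 0%, with 573 at an unadjusted p under 0.05, and DESeq2 called 10. For the difference of the diet effect between the ages (0.618% of genes called), Aqp9 had 0.25 ± 0.10 (adjusted p = 0.319) and was the 1 gene of the 5 with an unadjusted p under 0.05, and DESeq2 called 0.

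The diet difference in Gk had opposite signs in the crosses, and the test of that contrast fell close to the threshold. NODxPWK mice averaged 64.1 ± 9.20 CPM on the high and 81.9 ± 8.97 CPM on the normal diet (SD, n = 12). PWKxNOD mice averaged 330 ± 54.9 CPM on the high and 288 ± 67.2 CPM on the normal diet. In older NODxPWK mice the diets did not overlap, with at most 70.9 CPM on the high and at least 77.1 CPM on the normal diet, of which 5 of 6 mice carried label 25, and 1.13% of all genes did not overlap in that comparison. The difference of the diet effects was 0.55 ± 0.14 (adjusted p = 0.0687, edgeR) and had the same sign in 5 of 6 lane sets. DESeq2 called it (adjusted p = 0.0313), and leaving out 1 lane set at a time gave adjusted p from 0.024 to 0.481 by edgeR. Without the mice labelled 25, which left 1 older NODxPWK mouse on the normal diet, the difference of the diet effects was 0.72. Aqp9 (0.30 ± 0.10, adjusted p = 0.207) and Gpd1l (0.24 ± 0.10, adjusted p = 0.272) had the same direction and were not called. By edgeR 0 of the 5 genes passed, 3 had an unadjusted p under 0.05, and 0.125% of all genes were called.

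Counts of the 4 autosomal genes were not divided equally between the alleles. The part of allele assignment in these ratios was not tested. Gpd1l counts given to PWK made up 18.3% at the lowest, 33.7% in the median and 49.8% in the highest of 48 mice, below 50% in every one. The log2 ratio of PWK over NOD was -0.99 ± 0.06 (adjusted p = 1.17e-18, edgeR). In CPM the NOD allele of Gpd1l averaged 22.2 ± 2.99 in NODxPWK and 26 ± 4.26 in PWKxNOD mice, against 11.8 ± 2.53 and 12.8 ± 3.31 for PWK. The NOD copy was therefore given more counts on average whichever parent it came from. Both shuttle enzymes leaned the other way, with PWK shares of Gpd1 from 45% to 65.9% (median 56.6%) and of Gpd2 from 46.6% to 65.5% (median 57.3%). Gpd1 had a ratio of 0.38 ± 0.04 (adjusted p = 9.66e-11) with PWK above 50% in 43 of 48 mice. Gpd2 had a ratio of 0.43 ± 0.04 (adjusted p = 5.96e-14) with PWK above 50% in 44 of 48. Aqp9 was the closest to balance, with PWK shares of 47.7% to 55.7% (median 52.3%), PWK above 50% in 37 of 48 mice and a ratio of 0.12 ± 0.02 (adjusted p = 2.16e-08). With each allele's counts scaled to their own total, the ratio was 0.27 for Aqp9, 0.53 for Gpd1, 0.58 for Gpd2 and -0.84 for Gpd1l, each still called. All 4 genes were called, where 43.6% of 9362 autosomal genes were called (20.9% with PWK and 22.8% with NOD higher), and the direction was the same in 6 of 6 lane sets for each.

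**Figure D5:**
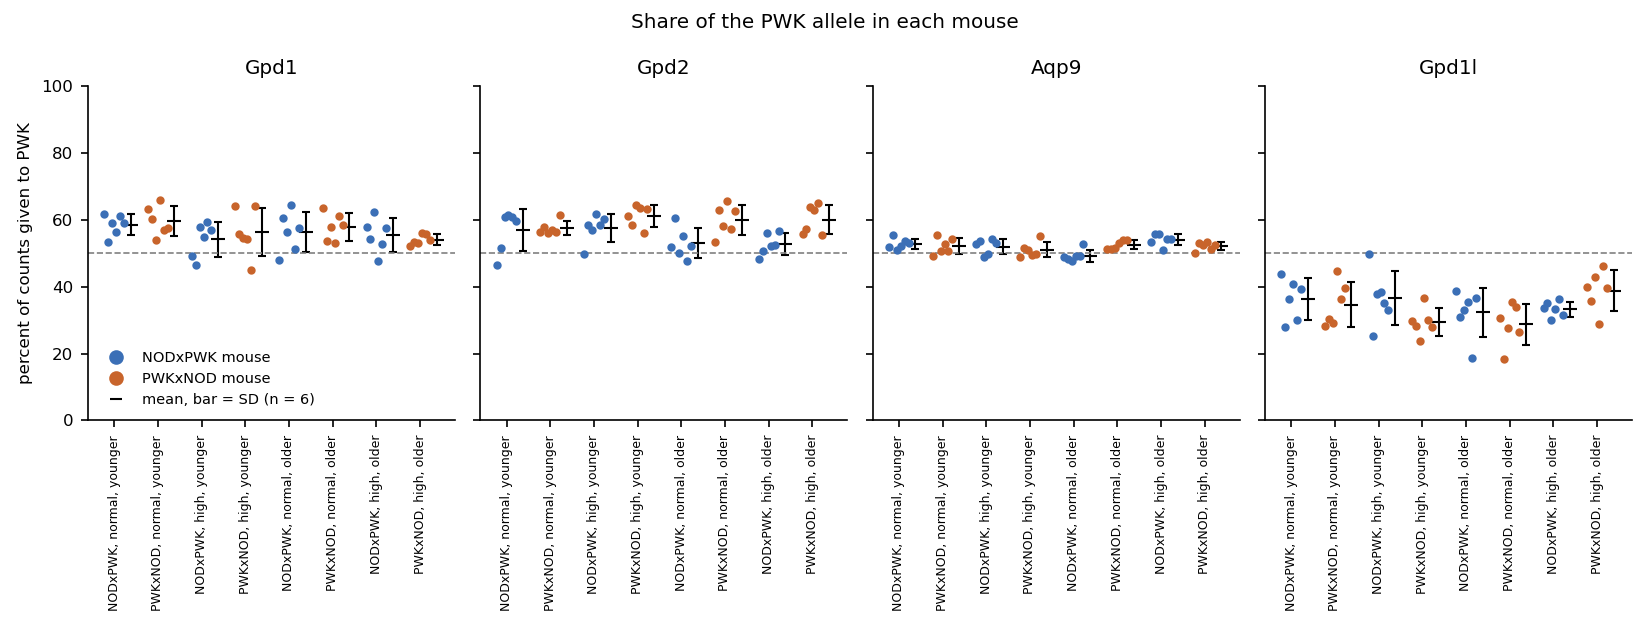
Percent of counts given to the PWK allele (vertical axis, 0 to 100, dashed line at 50) for Gpd1, Gpd2, Aqp9 and Gpd1l in every mouse by group (horizontal axis); points are mice and bars are mean ± SD (n = 6). Gpd1l lies below the line in all 48 mice, while Gpd1 and Gpd2 lie above it in 43 and 44 mice.

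Between mice of a group the SD of the PWK share was 6.11 percentage points for Gpd1l, 4.86 for Gpd1, 4.19 for Gpd2 and 1.85 for Aqp9. Binomial error at the median count, with every count taken to tell the alleles apart, would give 3.4, 1.32, 2.27 and 1.29 points. How many reads could tell the alleles apart was not known, so the part of counting error in the SD was not tested. By cross, without a test, the mean PWK share was 57.0% in PWKxNOD and 56.1% in NODxPWK mice for Gpd1, 51.9% and 52.0% for Aqp9, and 32.9% and 34.6% for Gpd1l. Gpd2 differed most, with 59.6% ± 3.68 in PWKxNOD and 55.0% ± 4.91 in NODxPWK mice (SD, n = 24), and the crosses overlapped. The ratio of the alleles was not shown to depend on age (0 of 4 called by edgeR and by limma, 0 with an unadjusted p under 0.05, 0.705% of all genes called). For diet, 0 of 4 were called by edgeR and by limma, and 0.0214% of all genes were called. Gpd1 alone had an unadjusted p under 0.05, at -0.18 ± 0.08 (adjusted p = 1, edgeR), with a mean PWK share of 55.0% ± 4.90 on the high and 58.1% ± 4.40 on the normal diet.

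Genes that release glycerol from triglyceride or take up its products gave the surroundings of these 5. With age, 4 of 14 lipase and related genes rose and 2 fell, with a median of -0.04 against 0.00 over all genes. Among those higher were Ces1d, a lipid droplet carboxylesterase (0.45 ± 0.10), Abhd6, a monoacylglycerol lipase (0.30 ± 0.07), and Lipa, the lysosomal acid lipase (0.22 ± 0.05). Among those lower was Aadac, a microsomal esterase (-0.18 ± 0.05). For Ces1d the age difference on the high minus that on the normal diet was -0.76 (log2), so its 0.45 averages unlike diets. Without the 7 mice labelled 25 that average was 0.33. Of 12 genes of triose phosphates and gluconeogenesis, 6 fell and 0 rose, with a median of -0.22. Among them were Fbp1, fructose-1,6-bisphosphatase (-0.21 ± 0.05), Slc37a4, the glucose 6-phosphate transporter (-0.32 ± 0.08), and Pklr, the liver pyruvate kinase of glycolysis (-0.54 ± 0.15). Of 15 alternatives, Fbp1 kept its call in 15, Slc37a4 in 14 and Pklr in 13. Pck1 and Gapdh, named after their values were seen, kept theirs in 7 and 6. In the malate-aspartate shuttle, which moves the same reducing equivalents as the glycerol phosphate shuttle, Got1 fell (-0.98 ± 0.15), Slc25a12 fell (-0.16 ± 0.05) and Got2 rose (0.12 ± 0.04) of 7 genes. Of 14 tested genes that turn glycerol 3-phosphate into triglyceride, the phosphatidate phosphatase genes Lpin1 (-0.78 ± 0.25) and Lpin3 (-0.27 ± 0.09) fell. Among the genes of these last lists, Got1 kept its call in 15 of 15 alternatives, Got2 and Lpin1 in 8 each, and Slc25a12 and Lpin3 in 4 each, neither of which DESeq2 called (adjusted p = 0.0547 and 0.0504). The shares over all genes were 6.42% higher and 5.59% lower with age. The lists were chosen with earlier results of these data known, so nothing is read from the contrast with these shares. These 4 lists and the one of PPAR alpha targets below held 19 calls for age, of which 8 passed when the 7 mice labelled 25 were left out, 11 when the 10 with pancreas markers were and 6 with the clock score in the model.

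Other glycerol kinases and channels were scarce in these livers. Of the 7 genes in that list, Gk5 averaged 0.200 CPM, Aqp7 0.192 CPM and Aqp3 0.041 CPM, Gk2 had counts in 1 of 48 mice and Gykl1 in 0, so these 5 were not tested. The 2 tested genes, Pgp, a glycerol 3-phosphate phosphatase, and Tkfc, a triokinase, were not called by edgeR or DESeq2 in any of the 7 comparisons of age and diet, and 1 value, Pgp for diet by cross, had an unadjusted p under 0.05. Of 12 regulators of these genes, among them Ppara and Hnf4a, edgeR called 0 for age with 4 at an unadjusted p under 0.05, and DESeq2 called 0. Among 11 targets of PPAR alpha, a regulator of Gk, Gpd1 and Aqp9 in fasting liver, 2 were called for age. Averaged over the diets, Cyp4a14 (1.65 ± 0.42) and Ehhadh (0.33 ± 0.09) were higher at the older age. The age difference on the high minus that on the normal diet was -3.53 and -0.83 (log2), so the averages do not describe each diet. Without the 7 mice labelled 25 the averages were 1.20 and 0.23. In older mice on the high diet 4 of these 11 fell and 0 rose, where 1.81% of all genes were lower, namely the fatty acid hydroxylase genes Cyp4a10 (-2.39 ± 0.42) and Cyp4a14 (-2.35 ± 0.52), Acot1, an acyl-CoA thioesterase (-1.63 ± 0.31), and Ehhadh, a peroxisomal enzyme of fatty acid oxidation (-0.67 ± 0.12). The list's median was -0.45 against -0.01 over all genes. The list was chosen with earlier results of these data known, so its share and median are a description only. Gk and Gpd1, at -0.12 ± 0.10 and -0.03 ± 0.11 in that comparison, were not called. Aqp9, at 0.16 ± 0.07, had the opposite sign and was not called either. When the 7 mice labelled 25 were left out, none of the 4 passed and the differences were smaller, at -1.21 for Cyp4a10, -1.46 for Cyp4a14, -1.15 for Acot1 and -0.46 for Ehhadh. When the 10 with pancreas markers were, none passed either, at -2.26, -2.33, -1.29 and -0.53 in the same order.

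After subtraction of each group's mean, the likeness of other genes to the 5 was measured by Pearson's r of log2 CPM over the 48 mice and 10355 genes. These values are a description of mice that share a tissue and differ in depth. Closest to Gk were Chpt1, a choline phosphotransferase (r = 0.88), Ttpa, the tocopherol transfer protein (0.85), and Zbtb44 (0.84). Aqp9 was closest to Cyp2e1 (0.86), Abcc2 (0.82) and Slc1a2 (0.79), and Gpd1 to Sec14l2, Grhpr and Bdh1 (0.84 each). Gpd2 and Gpd1l had looser companions, namely Mttp (0.58), Rap1gds1 (0.57) and Ppp2ca (0.57), and Cyp3a25 (0.63), N4bp2l1 (0.63) and Hpgd (0.61). Among the 5 genes, Gk went with Aqp9 (0.60) and Gpd1l (0.49) and against Gpd1 (-0.42). Gpd2 stayed between -0.14 and 0.13 with each of the other genes. The group means did not separate the age labels. In older PWKxNOD mice on the normal diet, the 2 labelled 25 were higher in Gk, Aqp9 and Gpd1l and lower in Gpd1. The part of that split in these values was not tested. In the order of all 10355 genes by r with Gk, Aqp9 had place 500, Gpd1l 1127 and Gpd1 8486, so many other genes were more extreme. Without subtraction the genes most like Gk were mt-Nd4l (0.97), Timm8a1 (0.93) and Gla (0.92), and those most unlike it were Alas2 (-0.96), Maged1 (-0.94) and Firre (-0.94), the first on the mitochondrial genome and the other 5 X-linked.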

How the data were processed

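Poly-A RNA of 48 livers was sequenced as 68-base reads without strand information. The deposited tables hold the authors' expected counts per gene, with a table for each parental allele, and their names carry the word EMASE, an allele-specific counting method whose version, annotation and filters were not given in the sources used here. CASAVA 1.7.0, Bowtie 1.1.2 and GRCm38/mm10 are named per the submitters' processing notes. Each mouse was run on 2 flowcells and has 1 column per table. Of 38924 genes, 37607 matched GENCODE M21, and those that did not held 0.159% of counts.

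Both tables were summed and rounded to whole numbers. After edgeR's filter on low counts, 11979 genes were scaled by TMM and fitted with 8 group means by edgeR 4.0.16 (quasi-likelihood, robust, R 4.3.3), and p-values were adjusted over all genes by Benjamini-Hochberg with a threshold of 0.05. Alleles were fitted over 9362 autosomal genes with a mean of at least 20 counts and a term for each mouse. The script was tested on simulated data. Alternatives included DESeq2 1.42.0, limma 3.58.1, other scalings and filters, and leaving out mice. The 5 genes were named throughout, with up to 4 called genes per pathway list by smallest p and the 3 genes most like each. A gene that this rule would name is not reported here. Members and lists were chosen with earlier results of these data known. The labels do not say that mice came from separate litters, so p-values measure only the spread between these mice.

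Replicate numbers mark lane sets, 1 mouse of each group on shared lanes, per the labels. The mean correlation of deviations within a lane set was -0.005 over 168 pairs of mice, and 39 pairs exceeded 0.1. The lane set was fitted as a block in an alternative. At 2.03 M to 7.48 M counts per mouse, Gpd1l, with a mean of 187.7 counts, had the coarsest allele shares.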

Additional observations from a re-analysis of the deposited data

Results flagged for a closer look

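In 4 of 72 groups of 6 values of the 5 genes, 1 mouse lay far from the others by Dixon's ratio of its gap to the range of the group, a rule set so that chance marks about 1 in 20 groups. Gk in younger NODxPWK mice on the normal diet was 97.9 CPM in replicate 6 and 69.6 to 79.6 CPM in the others. Gpd1 in younger PWKxNOD mice on the normal diet was 292 CPM in replicate 5 and 223 to 248 CPM in the others. The PWK share of Aqp9 in older NODxPWK mice on the normal diet was 52.7% in replicate 6 and 47.7% to 49.2% in the others. The PWK share of Gpd2 in younger PWKxNOD mice on the normal diet was 61.4% in replicate 6 and 56.0% to 57.9% in the others.

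The diet effect differed between the ages for 5 genes of the pathway lists by edgeR's test of the interaction (older minus younger, log2). It was -3.53 for Cyp4a14, -3.08 for Cyp4a10, -1.81 for Acot1 and -0.83 for Ehhadh among the PPAR alpha targets, and -0.76 for Ces1d, a lipid droplet carboxylesterase. In the order given, the values were -2.64, -1.90, -1.34, -0.63 and -0.50 when the mice labelled 25 were left out, and -3.42, -2.93, -1.77, -0.72 and -0.56 when those with pancreas markers were, and none of the 5 passed in either case. With the clock score in the model they were -3.46, -2.98, -1.71, -0.79 and -0.73, and Cyp4a10 passed. None passed without replicate 1 or without replicate 2 of every group.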

How the results depend on the processing

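Of 724 values of the 5 genes under an alternative, 683 were counted as unchanged. In a tested comparison that means the same direction and the same side of the threshold. For the difference between the crosses, which was not tested, it means a change smaller than the SD within groups. The causes of the changes below were not tested. Without the mice labelled 25, older NODxPWK mice on the normal diet were 1 mouse, whose value stands for its group in each result. The Aqp9 age difference was then 0.06 and Gk diet by cross 0.72. Small values changed sign for Gk: age -0.04, age by cross -0.03, diet by age 0.09 and diet in older mice 0.04. For Gpd1 they were age -0.11, diet by age 0.22, diet by cross -0.43 and diet in older mice 0.30. Others were Gpd1l diet by age 0.02, Gpd2 diet by cross -0.01 and Aqp9 allele by age -0.01. Gk diet by cross passed with DESeq2 (0.55) and without the shallowest barcode (0.67), where Gpd1l diet by age was 0.03 and Aqp9 age by cross 0.00. With the clock score, Aqp9 was -0.05 between the crosses, -0.06 for age by cross and -0.03 for diet, and Gpd1l age was 0.02. Without the mice with pancreas markers, an alternative chosen after seeing the data because Cela1 alone took every mouse past the planned level, Gpd1 was 0.07 for diet by age, -0.14 for diet by cross and 0.15 for diet in older mice. With alleles scaled to their own totals, Aqp9 allele by age was -0.01. Leaving out 1 replicate number at a time gave 0.15 to 0.24 for Aqp9 age, -0.02 to 0.02 for its allele by age, and for Gk -0.02 to 0.07 for age, -0.19 to 0.04 for diet by age, 0.48 to 0.67 for diet by cross and -0.07 to 0.02 for diet in younger mice. It gave -0.14 to 0.17 for Gpd1 diet by cross, -0.08 to 0.01 for Gpd1 diet in older mice, -0.03 to 0.00 for Gpd1l age and -0.08 to 0.05 for Gpd1l diet by age.

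With the lane set as a replicate block, no call on the 5 genes changed: Aqp9 age was 0.20 (adjusted p = 0.00745, edgeR) and Gk diet by cross 0.56 (adjusted p = 0.0643). Counts of called genes over all alternatives ranged from 740 to 1510 for age (1439 as reported), 0 to 125 for diet (41), 0 to 164 for diet by age (74), 5 to 525 for diet in older mice (445), 0 to 10 for diet in younger mice (0), 0 to 40 for age by cross (6, and 3 with the block) and 0 to 90 for diet by cross (15). For the alleles they ranged from 3530 to 5147 (4086), 39 to 68 by age (66) and 0 to 16 by diet (2). The planned rule on pancreas markers was not run, since it would have left out all 48 mice.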
